A study of Mus musculus with 18 samples.

Results

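The 10 genes described here are the master regulators of skeletal muscle formation and the genes of myoblast fusion: the paired-box factor Pax7, the 4 myogenic basic helix-loop-helix factors Myf5, Myod1, Myog and Myf6, the MADS-box factors Mef2a, Mef2c and Mef2d, and the fusion proteins Mymk and Mymx. They were chosen by name, and all 10 were found among the 55414 genes of the count table, each under its own Ensembl identifier. All 10 were among the 21772 genes tested. The cells were C2C12, an established line of mouse myoblasts that stop dividing and fuse into myotubes when serum is withdrawn. Confluent myoblasts received non-targeting siRNA (siNtc), pooled siRNAs against Erk3 (siErk3) or pooled siRNAs against Mk5 (siMk5), were differentiated for 6 days, and spent the last 16 h without serum, given either BSA alone or 0.5 mM palmitic acid on BSA as its carrier (PA). Erk3 is an atypical MAP kinase encoded by Mapk6, and Mk5 is its partner kinase encoded by Mapkapk5. The resulting 6 groups, siNtc BSA, siErk3 BSA, siMk5 BSA, siNtc PA, siErk3 PA and siMk5 PA, held 3 libraries each, 18 in all. Every group shares the cell line, the transfection and the differentiation, so a group models a siRNA or fatty acid effect in 1 cell line and not in an animal. Separate cultures for the libraries within a group are not stated in the sources used here, so p-values measure only the spread between these libraries.

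Pax7 marks the satellite cells, the stem cells of muscle. Myf5 and Myod1 commit cells to the muscle lineage, Myog switches on differentiation, and Myf6 (also called Mrf4) acts late, in maturing fibers. These 4 factors bind E-boxes together with E proteins, and the Mef2 factors bind beside them at promoters of contractile genes. Mymk (myomaker) and Mymx (myomixer, also called myomerger) are membrane proteins that fuse myoblasts into a multinucleated myotube, and both are targets of Myod1 and Myog.

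Library totals ran from 13041979 to 28496727 assigned read pairs, with a median of 22417470. The 18S ribosomal RNA gene took 1.5% to 12.9% of the pairs and was highest in siMk5 BSA, at 8.39% to 12.9%. All 8 myotube markers (Myh3, Myh8, Ckm, Acta1, Des, Tnnt3, Mylpf and Ttn) had at least 1 CPM (counts scaled by the TMM-normalized library size), with a sum of 13335 to 17529 CPM. All 8 markers of proliferating cells reached 1 CPM too. Of 7 adipocyte markers 3 did, and Adipoq, Fabp4, Plin1 and Cidec, which define the type, did not. The counts were 4 of 6 for fibroblasts, with Lum and Thy1 below 1 CPM, 1 of 6 for osteoblasts, 2 of 6 for macrophages and other leukocytes, with Ptprc, Adgre1, Csf1r and Itgam below 1 CPM, and 0 of 5 for endothelial cells. Mapk6 was lower with siErk3, at 57.4 ± 2.64 CPM against 132.3 ± 3.18 in BSA and 119.9 ± 11.4 against 231.8 ± 14.7 in PA (SD, n = 3). Mapkapk5 was low throughout, at 1.18 to 3.92 CPM, and its log2 difference with siMk5 of -0.61 in BSA and -0.49 in PA did not pass the test (FDR = 0.469 in each). Of the exonic bases of Mapkapk5, 56.4% are shared with Gm42878 on the same strand, and read pairs in that stretch were not assigned to either gene. At the protein level, the study reports silencing of both kinases by Western blot, and lower Erk3 protein with siMk5.

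Promoters were available for 6 of the 10 genes in the RefSeq table (built on GRCm38.p6), in 8 windows, since Mef2c has 3 of them: Myog, Myf5, Mef2a, Mef2c, Mef2d and Pax7. Each window holds the 250 bases before a transcription start and was placed on GRCm39, the build of the counts, by its only exact match. An E-box (CANNTG, which reads the same on both strands) occurred in 66.2% of the 32851 windows of all genes and the MEF3 element, a binding motif of Six4 (TCAGGTTTC, either strand) in 0.387%. The Myog window held 2 E-boxes and 1 MEF3 element, the 3 Mef2c windows held 2, 0 and 1 E-boxes, and the windows of Myf5, Mef2a, Mef2d and Pax7 held no match to either. No window of the 8 held the E-box CAGCTG, which counts among CANNTG and occurred in 13% of all windows. Pax7 and Mef2a, whose windows held no match, were also lower in PA, and Myf5, whose window held none, did not pass the test. A link between the motifs and the levels in PA was not tested. The sequences of Myog, of the first Mef2c window and of Mef2d are shown because Myog and Mef2c were lower in PA and Mef2d was not. Each is cut where an annotated exon on its strand begins, all are read 5′ to 3′ on the plus strand, and capitals mark E-boxes and the MEF3 element. They lie at chr1:134217492-134217706 (Myog), chr13:83651903-83652063 (Mef2c) and chr3:88049429-88049631 (Mef2d) of GRCm39.
Myog: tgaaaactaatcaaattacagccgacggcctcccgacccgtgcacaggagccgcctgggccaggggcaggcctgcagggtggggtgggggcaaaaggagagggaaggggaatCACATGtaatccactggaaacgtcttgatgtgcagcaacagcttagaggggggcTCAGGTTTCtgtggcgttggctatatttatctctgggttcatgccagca
Mef2c: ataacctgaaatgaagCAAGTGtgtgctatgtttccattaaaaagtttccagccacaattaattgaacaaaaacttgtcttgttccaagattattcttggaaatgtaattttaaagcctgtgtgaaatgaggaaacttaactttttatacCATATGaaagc
Mef2d: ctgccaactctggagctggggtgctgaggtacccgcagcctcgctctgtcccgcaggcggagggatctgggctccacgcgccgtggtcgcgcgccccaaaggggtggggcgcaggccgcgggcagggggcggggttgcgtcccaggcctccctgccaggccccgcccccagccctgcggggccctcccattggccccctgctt
In Myog the MEF3 element lies 84 to 76 bases and the printed E-box 138 to 133 bases before the start; the other E-box, CAGTTG, lies 12 to 7 bases before it, inside the trimmed part. A match describes these letters only.

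In control myotubes (siNtc BSA) the 10 genes spanned a wide range of levels, compared here as CPM per kb of exons, with the SD over 3 libraries. Myog was highest at 328.6 ± 4.52 CPM per kb and Mymk was next at 265.9 ± 11.4. Then came Mymx at 51.2 ± 5.57, Myod1 at 48.1 ± 4.34, Mef2c at 39 ± 0.714, Mef2d at 32.8 ± 1.17 and Mef2a at 16.8 ± 0.880. Pax7 reached 7.09 ± 0.243, Myf5 2.84 ± 0.457 and Myf6 1.13 ± 0.205. Of neighbours in this order, Mymx and Myod1 overlapped between libraries and all other neighbours did not. The levels of Mef2a and Mef2c are lowered on this scale by the length over which their isoforms spread, 14681 and 15715 bases. Myog and Mymk held the highest ranks, and Mef2a, Pax7, Myf5 and Myf6 the lowest in the same order, in all 6 groups. In the middle, Mef2d had rank 6 in the 3 BSA groups, rank 3 in siNtc PA and rank 4 in siErk3 PA and siMk5 PA. In the PA groups Mef2c and Myod1 overlapped, as did Myf5 and Myf6 in siNtc PA, and in siErk3 PA also Mymx with Mef2d and Pax7 with Myf5. In siMk5 BSA Mef2c overlapped Mef2d, and in siErk3 BSA all neighbours were apart.

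**Figure D1:**
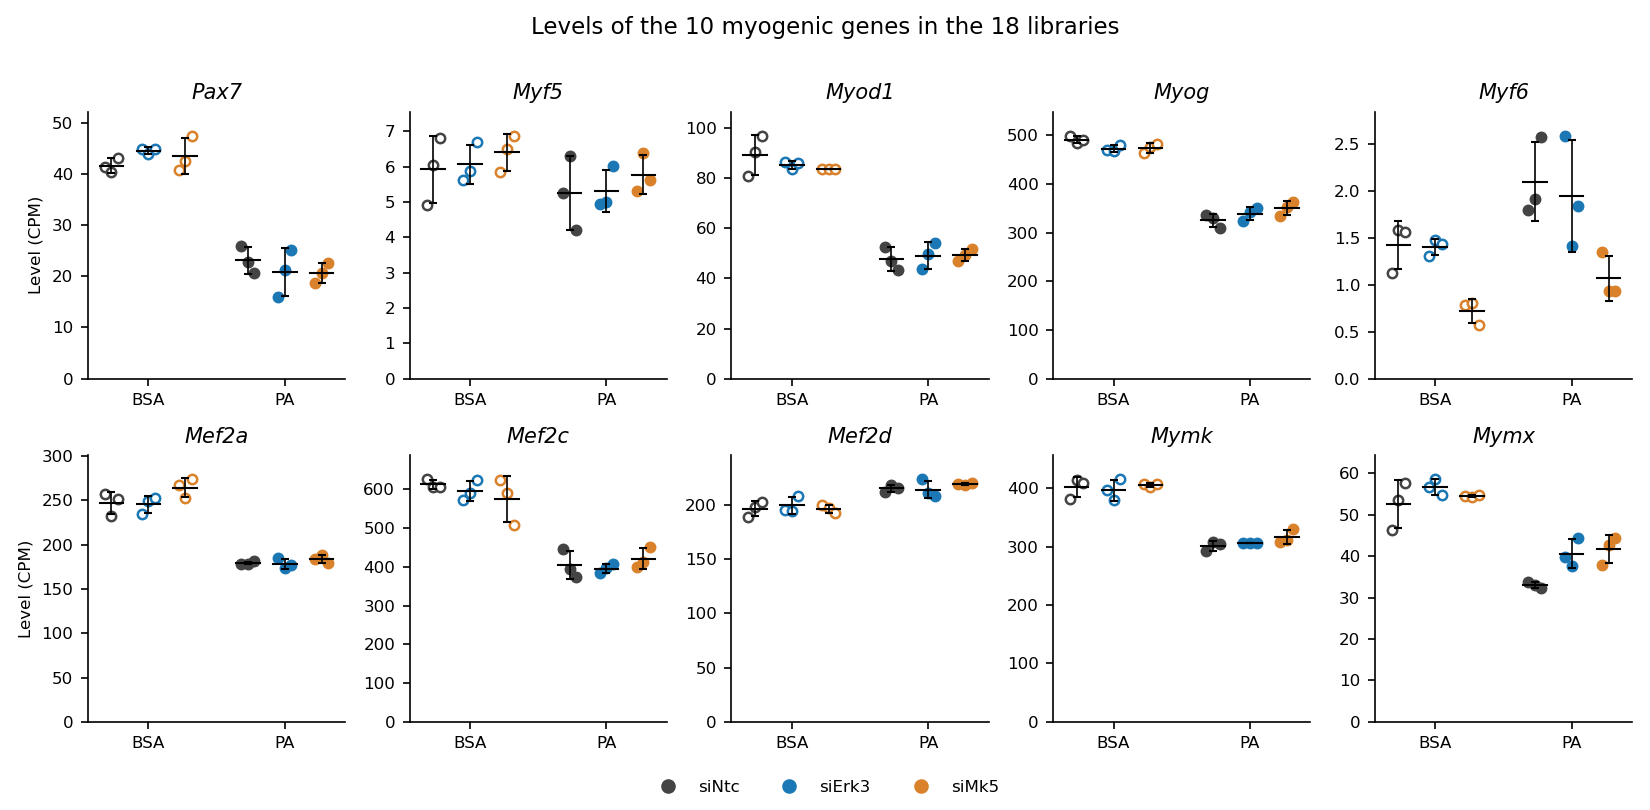
Level of each gene in CPM (vertical axis, starting at 0) in each of the 18 libraries, with open circles for BSA, filled circles for PA, colors for the siRNA, and the mean ± SD of 3 libraries in black. In PA the libraries of Pax7, Myod1, Myog, Mef2a, Mef2c, Mymk and Mymx all lie below those in BSA, and the Myf6 libraries of siMk5 lie below those of siNtc in each medium.

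The comparison of PA with BSA asks how a fatty acid load acts on the muscle program, and it was made within each siRNA, so the 3 comparisons share no library. Of the 10 genes 7 were called lower with PA in siNtc, Pax7, Myod1, Myog, Mef2a, Mef2c, Mymk and Mymx. Of these, 6 were also called lower in siErk3 and in siMk5, all but Mymk, which was lower there but short of the fold limit. None was called higher. A gene was called when its FDR was below 0.05 and its fold change exceeded 1.3, which is 0.38 on the log2 scale. By that rule 30.6% of all tested genes were called in siNtc, 32.1% in siErk3 and 29.7% in siMk5, and 15.1%, 16.3% and 14.6% were called with a lower level. The FDR alone passed 8 of the 10 genes in each siRNA, 7 lower and Mef2d higher, against 45.1%, 47.1% and 44.3% of all genes. The median log2 difference of the 10 genes was -0.53 in siNtc, -0.47 in siErk3 and -0.41 in siMk5, and that of all tested genes was -0.03, -0.01 and -0.01.

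**Figure D2:**
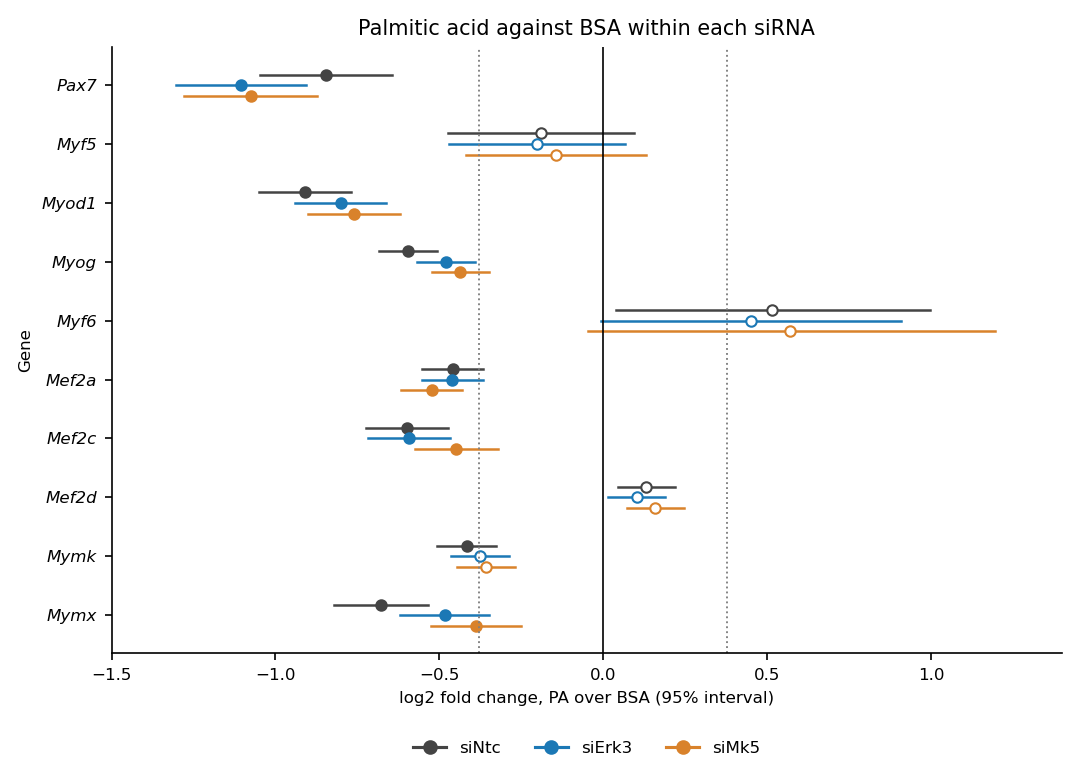
Log2 fold change of PA over BSA (horizontal axis) for each gene within siNtc, siErk3 and siMk5, with 95% intervals as lines, filled points for called genes and dotted lines at the 1.3-fold limit. Pax7 and Myod1 lie farthest to the left, Mymk lies at the limit, Mef2d is slightly to the right of 0, and Myf6 has the widest intervals.

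Pax7, the satellite cell factor (chromosome 4, 139464373 to 139560839, minus strand), measured 41.2, 40.3 and 43.1 CPM in the siNtc BSA libraries and 25.8, 22.8 and 20.6 CPM in siNtc PA. The groups did not overlap, and the level was lower by 44.4% (log2 fold change -0.85, SE 0.10, FDR = 1.30e-08, quasi-likelihood test of edgeR). In siErk3 it went from 44.9, 43.8 and 44.9 CPM to 15.9, 21.3 and 25.2 CPM, a log2 fold change of -1.10 (SE 0.10, edgeR FDR = 2.81e-11). In siMk5 the values were 40.7, 42.4 and 47.4 CPM in BSA and 18.7, 20.7 and 22.6 CPM in PA, a log2 fold change of -1.07 (SE 0.10, edgeR FDR = 1.13e-10). Pax7 thus fell in all 3, and its spread was widest in siErk3 PA, with an SD of 22.5% of the mean.

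Myf5, one of the earliest lineage factors (chromosome 10, 107318769 to 107321995, minus strand), was low in every library, at 70 to 187 counts or 4.19 to 6.86 CPM. Its group means ran from 5.25 to 6.40 CPM, and BSA and PA libraries overlapped within each siRNA. Its log2 difference was -0.19 in siNtc (95% interval -0.47 to 0.09), -0.20 in siErk3 (-0.47 to 0.07) and -0.14 in siMk5 (-0.42 to 0.13), with edgeR FDR of 0.295, 0.220 and 0.424. Falls as large as those of Pax7 or Myod1 lie outside these intervals, and a fall of 1.3-fold lies inside them.

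Myod1, the factor that can turn other cells into muscle (chromosome 7, 46025898 to 46028523, plus strand), measured 80.9, 90.6 and 96.9 CPM in siNtc BSA and 52.7, 46.9 and 43.5 CPM in siNtc PA. Its level was lower by 46.8% (log2 fold change -0.91, SE 0.07, edgeR FDR = 1.46e-12), with no overlap between the media. With siErk3 it was 86.7, 83.7 and 86.1 CPM in BSA and 43.6, 49.7 and 54.0 CPM in PA, and with siMk5 83.7, 83.6 and 83.7 CPM against 47.0, 49.5 and 51.7 CPM. The corresponding log2 fold changes were -0.80 (SE 0.07, edgeR FDR = 1.34e-11) and -0.76 (SE 0.07, edgeR FDR = 7.38e-11).

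Myog, the factor of terminal differentiation (chromosome 1, 134217727 to 134220286, plus strand), was the most abundant per kb, at 498.6, 485.3 and 489.9 CPM in siNtc BSA. In siNtc PA it measured 336.3, 329.4 and 310.3 CPM, which is lower by 33.8% (log2 fold change -0.59, SE 0.04, edgeR FDR = 6.70e-13). The log2 fold change was -0.48 in siErk3 (SE 0.04, edgeR FDR = 6.04e-11) and -0.44 in siMk5 (SE 0.04, edgeR FDR = 5.76e-10). All 9 PA libraries lay at 310.3 to 363.9 CPM, and all 9 BSA libraries at 463.1 to 498.6 CPM.

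Myf6, the factor of mature fibers (chromosome 10, 107328714 to 107330598, minus strand), had only 11 to 59 counts in a library, so counting error weighs on each value. It measured 1.12, 1.58 and 1.56 CPM in siNtc BSA and 1.80, 1.92 and 2.58 CPM in siNtc PA. The log2 difference was 0.52 in siNtc (95% interval 0.04 to 1.00, edgeR FDR = 0.0715), 0.45 in siErk3 (-0.01 to 0.91, edgeR FDR = 0.10) and 0.57 in siMk5 (-0.05 to 1.19, edgeR FDR = 0.129). Its mean was higher in PA in every siRNA, with overlapping libraries in siErk3, and none of the 3 differences passed.

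Among the Mef2 factors, which bind DNA with the myogenic factors and are held back by class IIa histone deacetylases, Mef2c and Mef2a fell and Mef2d did not. Mef2c (chromosome 13, 83652153 to 83815199, plus strand) measured 625.7, 606.5 and 606.0 CPM in siNtc BSA and 445.4, 393.6 and 374.7 CPM in siNtc PA. Its log2 fold change was -0.60 in siNtc (SE 0.06, edgeR FDR = 1.24e-09), -0.59 in siErk3 (SE 0.06, edgeR FDR = 1.25e-09) and -0.45 in siMk5 (SE 0.06, edgeR FDR = 3.22e-07). The lowest BSA library of siMk5, at 508.4 CPM, still lay above its highest PA library, at 451.0 CPM.

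Mef2a (chromosome 7, 66880911 to 67022606, minus strand) measured 257.1, 232.4 and 251.3 CPM in siNtc BSA against 178.7, 178.5 and 181.1 CPM in siNtc PA. It fell by 27.3% in siNtc, 27.3% in siErk3 and 30.4% in siMk5, with log2 fold changes of -0.46, -0.46 and -0.52 and an SE of 0.05 in each (edgeR FDR = 6.85e-10, 4.73e-10 and 4.00e-11). Lysmd4 covers 2.06% of its exonic bases on the opposite strand, and counting was strand-specific. Mef2d (chromosome 3, 88049679 to 88079393, plus strand) went the other way by a small amount, from 188.5, 197.8 and 202.2 CPM in siNtc BSA to 211.7, 218.4 and 215.1 CPM in siNtc PA. Its log2 difference of 0.13 in siNtc, 0.10 in siErk3 and 0.16 in siMk5 passed the FDR (edgeR FDR = 0.0120, 0.0479 and 0.00264) and stayed below the fold limit. The upper ends of its 95% intervals, 0.22, 0.19 and 0.25, all lay below that limit. An overlapping antisense gene, 1700113A16Rik, shares 8.87% of its exonic bases.

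Of the fusion pair, Mymx was called lower in all 3 siRNAs and Mymk in siNtc, with Mymk lower in the other siRNAs as well. Mymk, which acts on both fusing cells (chromosome 2, 26951648 to 26962191, minus strand), measured 382.1, 413.9 and 409.5 CPM in siNtc BSA and 292.2, 307.3 and 304.1 CPM in siNtc PA. Its log2 fold change was -0.42 in siNtc (SE 0.04, edgeR FDR = 1.62e-09), which was called. In siErk3 and siMk5 the values of -0.38 and -0.36 (SE 0.04 each, edgeR FDR = 1.06e-08 and 3.15e-08) passed the FDR but fell just short of the fold limit. In siErk3 the limit was passed when any of 5 of the 6 libraries was left out (-0.39 to -0.42), all but siErk3 BSA replicate 3, and in siMk5 when siMk5 PA replicate 3 was left out (-0.39). The interval of the difference between siErk3 and siNtc in this effect, -0.08 to 0.17, includes 0.

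Mymx, the micropeptide that acts with Mymk at the end of fusion (chromosome 17, 45911897 to 45913028, minus strand), measured 46.4, 53.7 and 57.6 CPM in siNtc BSA and 33.8, 33.02 and 32.2 CPM in siNtc PA. It was lower by 37.5% (log2 fold change -0.68, SE 0.07, edgeR FDR = 1.07e-09). With siErk3 the libraries gave 56.8, 58.5 and 54.7 CPM in BSA and 39.8, 37.7 and 44.4 CPM in PA, a log2 fold change of -0.48 (SE 0.07, edgeR FDR = 2.56e-07). With siMk5 they gave 54.5, 54.3 and 54.7 CPM in BSA and 38.0, 42.8 and 44.3 CPM in PA, a log2 fold change of -0.39 (SE 0.07, edgeR FDR = 1.47e-05). That last value is near the fold limit, and without siMk5 PA replicate 1 it was -0.34, which is short of it.

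Markers of other cells moved with the medium as well. The 8 markers of proliferating cells (Mki67, Top2a, Ccna2, Ccnb1, Cdk1, Mcm5, Pcna and Birc5) summed to 1077 to 1186 CPM in the 9 BSA libraries and 512 to 650 CPM in the 9 PA libraries. Of these 8 genes 7 fell in each siRNA, and Pcna went the other way, from 67.0 ± 4.94 to 85.8 ± 4.89 CPM in siNtc (SD, n = 3), below the fold limit in all 3. The sum of the fibroblast list (Pdgfra, Col1a1, Col1a2, Dcn, Lum and Thy1) was 4039 to 4895 CPM in BSA and 1644 to 2428 CPM in PA, and that of the myotube list 13908 to 17529 CPM in BSA and 13335 to 15369 CPM in PA. The myotube genes moved unequally in siNtc. Ttn went from 4273 ± 136 to 3046 ± 174 CPM and Acta1 from 3190 ± 309 to 3025 ± 39.8 CPM. Only Des had a higher mean in PA, at 2174 ± 44.2 against 2012 ± 98.6 CPM (SD, n = 3). The adipocyte sums were 28.7 to 34.4 CPM in BSA and 27.7 to 37.3 CPM in PA, made up of genes that moved in opposite directions. Lpl and Pparg rose in all 3 siRNAs, from 3.83 ± 0.159 to 11.7 ± 1.90 CPM and from 4.89 ± 0.446 to 7.09 ± 0.849 CPM in siNtc, and Cebpa fell in all 3, from 23.8 ± 1.48 to 16.5 ± 1.73 CPM in siNtc (SD, n = 3). In RNA from whole cultures, fewer cells of a type and less RNA per cell cannot be told apart, which bears on Pax7, Myf5 and Myod1 in particular, since dividing myoblasts express them too. The part of these marker levels in the lower values of the 10 genes was not tested.

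Silencing of Erk3 or of Mk5 was compared with siNtc within each medium, to see whether either kinase acts on the myogenic program. None of the 10 genes was called in any of these 4 comparisons by edgeR, and none by DESeq2. Over all genes 0.785% were called with siErk3 in BSA, 0.556% with siErk3 in PA, 0.0643% with siMk5 in BSA and 0.547% with siMk5 in PA. An unadjusted p below 0.05 was reached by 0, 1, 2 and 3 of the 10 genes in that order, and by 10.6%, 8.28%, 6.89% and 6.79% of all genes. The siErk3 and siMk5 comparisons in a medium share the siNtc libraries. For the 8 genes other than Myf6 and Mymx the log2 differences lay between -0.16 and 0.13, both found in siMk5 PA, and their 95% intervals between -0.38 and 0.41.

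**Figure D3:**
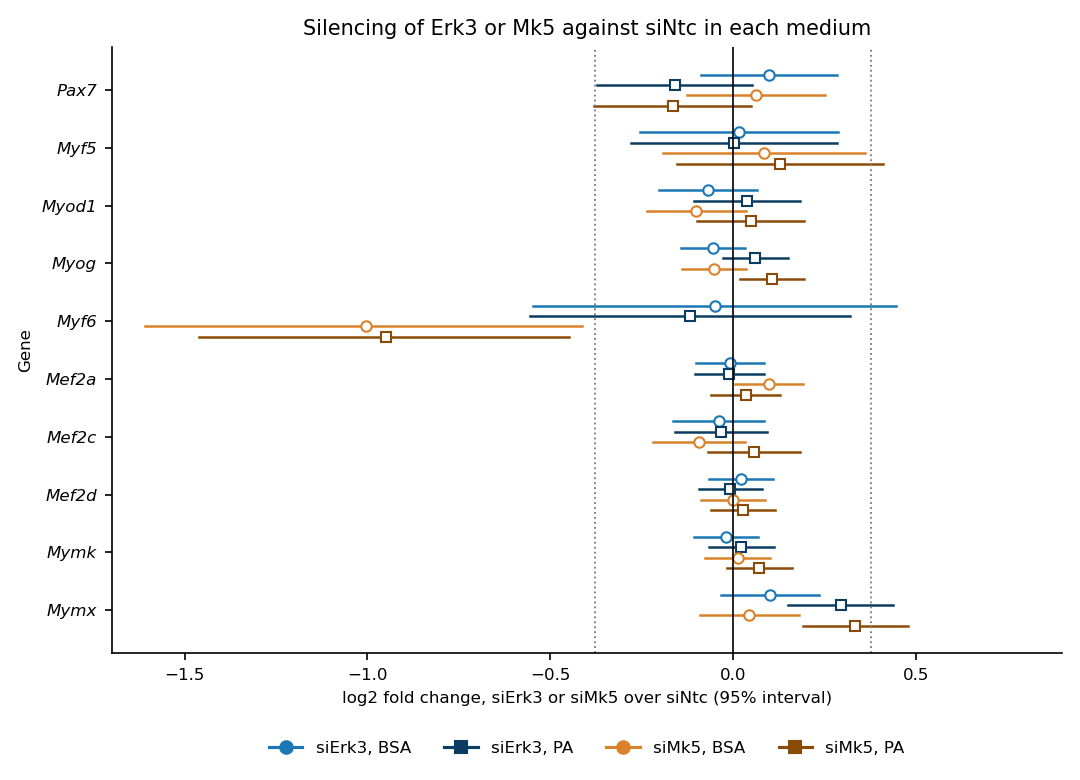
Log2 fold change of siErk3 or siMk5 over siNtc (horizontal axis) for each gene in BSA (circles) and PA (squares), with 95% intervals as lines and dotted lines at the 1.3-fold limit; open points mark genes that were not called. Most points lie near 0, Myf6 with siMk5 lies near -1 in each medium, and Mymx lies near 0.3 with both siRNAs in PA.

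The fusion gene Mymx passed the FDR, alone among the 10 genes, in both comparisons in PA. In PA it measured 39.8, 37.7 and 44.4 CPM with siErk3 and 38.0, 42.8 and 44.3 CPM with siMk5, against 33.8, 33.02 and 32.2 CPM with siNtc, so that both silenced groups lay above the same 3 control libraries. The log2 difference was 0.29 with siErk3 (SE 0.07, edgeR FDR = 0.0301) and 0.33 with siMk5 (SE 0.07, edgeR FDR = 0.00905), both below the fold limit. By the FDR alone this is 1 of 10 genes in each comparison, where 0.854% and 0.776% of all genes passed. The FDR of siErk3 depended on single libraries: it was 0.107 without siErk3 PA replicate 3, 0.0602, 0.118 and 0.0746 without siNtc PA replicates 1, 2 and 3, and 0.0924 in a fit of only the libraries compared. That of siMk5 was 0.0801 and 0.106 without siMk5 PA replicates 2 and 3, while without siMk5 PA replicate 1 the difference was 0.40, which is past the fold limit. In BSA, where the groups overlapped, the differences were 0.10 (95% interval -0.03 to 0.23) and 0.04 (-0.09 to 0.18).

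Whether the response of Mymx to PA differed between siRNAs was tested by the interaction. The log2 difference between the PA effect in siMk5 and that in siNtc was 0.29 (95% interval 0.09 to 0.49, unadjusted p = 0.00559, edgeR FDR = 0.396), and for siErk3 it was 0.19 (-0.0017 to 0.39, unadjusted p = 0.0519, edgeR FDR = 0.813). Neither passed. No interaction of the 10 genes was called by edgeR or by DESeq2, where 0.0367% of all genes were called for siErk3 and 0.211% for siMk5. An unadjusted p below 0.05 was reached by 0 of the 10 genes for siErk3 and by 2 for siMk5, Mymx and Myog, and by 6.10% and 7.43% of all genes. For Myog the interaction with siMk5 was 0.16 (95% interval 0.03 to 0.28, edgeR FDR = 0.536), with siMk5 PA at 334.8, 352.3 and 363.9 CPM beside siNtc PA at 336.3, 329.4 and 310.3 CPM.

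Myf6 had the largest difference of the 10 genes with siMk5. In BSA it had 18, 16 and 11 counts with siMk5 against 16, 38 and 33 with siNtc, which is 0.785, 0.805 and 0.568 CPM against 1.12, 1.58 and 1.56 CPM. In PA the counts were 30, 20 and 18 against 40, 42 and 51, or 1.35, 0.932 and 0.929 CPM against 1.80, 1.92 and 2.58 CPM. The groups did not overlap in either medium. The log2 difference was -1.0 in BSA (SE 0.29, edgeR FDR = 0.256) and -0.95 in PA (SE 0.25, edgeR FDR = 0.0609), so neither was called.

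In the mean of both media, a contrast added after the data were seen, the log2 difference of Myf6 with siMk5 was -0.98 (SE 0.19, 95% interval -1.37 to -0.59, edgeR FDR = 0.00657). It was the only one of the 10 genes called there, where 0.211% of all genes were, and lay between -0.90 and -1.08 over repeats that each omitted 1 library. The difference in PA alone ran from -0.78, without siNtc PA replicate 3 (edgeR FDR = 0.381), to -1.16, without siMk5 PA replicate 1 (edgeR FDR = 0.0422), and its FDR was 0.0585 to 0.331 in the other 4 such repeats. The siMk5 BSA libraries also had the highest 18S share, 8.39% to 12.9% against 2.56% to 7.17% in siNtc BSA, while in PA the shares were 1.71% to 6.69% and 5.32% to 6.43%. Their part in this result was not tested. In siErk3 the levels of Myf6 overlapped those of siNtc in each medium, at 1.31, 1.48 and 1.43 CPM in BSA and 2.58, 1.41 and 1.84 CPM in PA, with a log2 difference in the mean of both media of -0.08 (95% interval -0.41 to 0.25). For siErk3 none of the 10 genes was called in that mean, where 0.919% of all genes were, and none by DESeq2. An unadjusted p below 0.05 was reached there by Mymx and by 11.8% of all genes. Mymx also passed the FDR there, with a log2 difference of 0.20 (edgeR FDR = 0.0189), below the fold limit. Over repeats that each omitted 1 library its edgeR FDR was 0.00587 to 0.0489. By the FDR alone 445 of the 21772 genes passed. With siMk5 the difference of Mymx in that mean was 0.19 (edgeR FDR = 0.0881).

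The direct comparison of siErk3 with siMk5 called none of the 10 genes by edgeR or DESeq2 in BSA or in PA, where 0.588% and 1.03% of all genes were called. An unadjusted p below 0.05 was reached by Myf6 and Mef2a in BSA and by Myf6 in PA, and by 8.49% and 10.2% of all genes. Myf6 was higher with siErk3 than with siMk5 by 0.95 in BSA (95% interval 0.38 to 1.54, edgeR FDR = 0.126) and by 0.83 in PA (0.33 to 1.34, edgeR FDR = 0.0892) on the log2 scale, with no overlap of libraries in either. Over the 6 repeats that each omitted 1 library, the PA value ran from 0.57, without siErk3 PA replicate 1 (edgeR FDR = 0.43), to 1.04, and the edgeR FDR fell below 0.05 only without siErk3 PA replicate 2 (0.0268). Mef2a differed by -0.11 in BSA (95% interval -0.20 to -0.01, edgeR FDR = 0.475). For Mymx the difference was 0.06 in BSA (95% interval -0.08 to 0.19) and -0.04 in PA (-0.18 to 0.10).

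The genes around these factors were described in 6 lists, beginning with the partners that decide whether the myogenic factors bind DNA. Counts of list genes that rose or fell are counts of called genes. Over all genes 30.6% were called with PA in siNtc, 32.1% in siErk3 and 29.7% in siMk5. Called with a lower level were 15.1%, 16.3% and 14.6%. Of 12 E proteins, Id inhibitors and related factors tested, 2 rose and 4 fell with PA in siNtc, with 2 and 5 in siErk3 and 1 and 4 in siMk5. Their median log2 difference in siNtc was -0.10, against -0.03 for all genes. Tcf4, an E protein that pairs with Myod1, fell from 252.0 ± 6.25 to 137.5 ± 16.4 CPM (SD, n = 3; log2 fold change -0.87). Bhlhe41 fell by 0.85 and Msc by 2.85 on the log2 scale, the latter at 3 to 4 counts per PA library, and Bhlhe40, a repressor, rose by 0.88. No gene of this list was called with either siRNA by edgeR, and an unadjusted p below 0.05 was reached by 4 with siErk3 in BSA, 1 with siErk3 in PA, 1 with siMk5 in BSA and 0 with siMk5 in PA. Of all genes 10.6%, 8.28%, 6.89% and 6.79% reached it in that order. The smallest p belonged to Id2 with siErk3 in both media, to Tcf3 with siMk5 in BSA and to Id1 with siMk5 in PA.

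Of 15 homeobox, Eya and paired-box regulators tested, which act upstream of the myogenic factors, 5 fell with PA in siNtc and 0 rose, with 7 and 2 in siErk3 and 5 and 0 in siMk5. Their median log2 difference was -0.12, -0.71 and -0.70 in that order, against -0.03, -0.01 and -0.01 for all genes. These medians do not measure a difference between siRNAs. The interaction with PA had a median over the 15 genes of -0.04 for siErk3 and -0.06 for siMk5, and 0 interactions of the list were called. Six4, a homeobox factor that binds MEF3 elements, fell by 0.70 on the log2 scale in siNtc, 0.83 in siErk3 and 0.73 in siMk5. Lbx1, a factor of migrating muscle precursors, was the gene of this list called against siNtc: it was higher with siErk3 in BSA, at 2.40 ± 0.293 CPM against 1.04 ± 0.274 in siNtc (SD, n = 3; log2 fold change 1.26, SE 0.23, edgeR FDR = 8.70e-04). Lbx1 was not called with siErk3 in PA, and counting error weighs on a level this low. An unadjusted p below 0.05 was reached by 2, 3, 1 and 0 of the 15 genes (siErk3 in BSA and PA, then siMk5). The shares over all genes were 10.6%, 8.28%, 6.89% and 6.79%.

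Among 19 Mef2 partners and class IIa histone deacetylases, 2 rose and 3 fell with PA in siNtc, 3 and 6 in siErk3, and 3 and 4 in siMk5, with a median log2 difference in siNtc of 0.11. That makes 5, 9 and 7 of 19 genes called, where 30.6%, 32.1% and 29.7% of all genes were. Hdac4, a deacetylase that represses Mef2 proteins, rose from 58.6 ± 5.82 to 94.6 ± 1.69 CPM in siNtc (SD, n = 3; log2 fold change 0.68), and the histone demethylase gene Kdm6a rose by 0.69. Smarcd3, which encodes the chromatin remodeling subunit Baf60c, fell by 0.59 and Vgll3 by 0.55 on the log2 scale. Vgll2, a cofactor of Mef2 and Tead proteins, was higher with siErk3, by 0.64 in BSA (SE 0.10, edgeR FDR = 9.85e-05) and by 0.48 in PA (SE 0.09, edgeR FDR = 0.00472). It was the gene of this list called in those 2 comparisons, and with siMk5 none was called. An unadjusted p below 0.05 was reached by 3 of 19 with siErk3 and 1 of 19 with siMk5 in each medium. The shares over all genes were 10.6% and 8.28% with siErk3 in BSA and PA, and 6.89% and 6.79% with siMk5.

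Of 36 other genes of myoblast recognition and fusion, 6 rose and 8 fell with PA in siNtc, 5 and 10 in siErk3, and 3 and 8 in siMk5. The median log2 difference of -0.05 in siNtc was close to that of all genes. Elmo1, an adaptor in the Dock1 pathway of actin remodeling, rose from 5.55 ± 0.316 to 44.6 ± 3.61 CPM in siNtc (SD, n = 3; log2 fold change 3.00), and the actin regulator Wipf1 rose by 0.52. Ehd2, a membrane remodeling gene, fell by 0.69 and the adhesion gene Jam2 by 0.51. Kirrel3 and Cdh2, which encode adhesion proteins of the cell surface, fell by 1.67 and 0.50 in siMk5. None of the list was called with either siRNA against siNtc by edgeR, where 8, 7, 4 and 5 genes had an unadjusted p below 0.05 (siErk3 in BSA and PA, then siMk5). The shares over all genes were 10.6%, 8.28%, 6.89% and 6.79%. Elmo1 was lower with siErk3 than with siMk5 in BSA, by 0.53 on the log2 scale (SE 0.13, edgeR FDR = 0.0396).

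Of 25 satellite cell, Notch and quiescence genes, 4 rose and 10 fell with PA in siNtc, 4 and 11 in siErk3, and 3 and 11 in siMk5, with a median of -0.15 in siNtc. Tenm4 rose by 3.98 on the log2 scale, and Rbpj, the DNA-binding protein of Notch signaling, rose from 36.1 ± 1.86 to 97.5 ± 10.4 CPM (SD, n = 3; log2 fold change 1.44). The receptor Notch2 fell by 0.58 and Hes6, a gene that favors differentiation, by 0.95 on the log2 scale. The chemokine gene Cxcl12 was the gene called against siNtc, lower with siErk3 in PA at 27.4 ± 7.43 CPM against 39.13 ± 7.32 (SD, n = 3; log2 fold change -0.53, SE 0.12, edgeR FDR = 0.0271). An unadjusted p below 0.05 was reached by 7, 8, 1 and 3 of the 25 genes (siErk3 in BSA and PA, then siMk5). The shares over all genes were 10.6%, 8.28%, 6.89% and 6.79%.

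Of 30 early targets of the myogenic factors, 0 rose and 11 fell with PA in siNtc, 0 and 6 in siErk3, and 0 and 4 in siMk5. Their median log2 difference was -0.33, -0.25 and -0.14 in that order. The calcium pump gene Atp2a1 fell by 1.18, the sarcomere genes Mybph, Actc1 and Lmod3 by 0.80, 0.45 and 0.62 in siNtc. The 4 that fell in siMk5 were Atp2a1, Mybph, Myh8 and the cell cycle inhibitor Cdkn1c, and Myh8 and Cdkn1c fell in all 3 siRNAs, by 0.51 and 0.54 in siNtc and by 0.59 and 0.66 in siMk5. Actc1 and Lmod3 were not called in siMk5, at -0.37 and -0.32. Myh8, the perinatal myosin heavy chain, was higher with siErk3 in BSA, at 505.3 CPM against 341.8 in siNtc (log2 fold change 0.57, SE 0.05, edgeR FDR = 1.25e-07), and in PA, at 365.5 against 240.5 CPM (0.60, SE 0.05, edgeR FDR = 2.27e-08). The embryonic Myh3 was higher by 0.39 in BSA (SE 0.05, edgeR FDR = 1.44e-05). Reads of myosin heavy chain genes can be shared among near-identical copies, so their split is uncertain. No early target was called with siMk5 against siNtc by edgeR, while 15 of 30 in BSA and 12 of 30 in PA had an unadjusted p below 0.05, against 6.89% and 6.79% of all genes. With siErk3 these were 14 of 30 in BSA and 12 of 30 in PA, against 10.6% and 8.28% of all genes. The median log2 difference of the 30 genes was -0.11 with siMk5 in BSA and 0.04 in PA, and -0.04 and 0.02 with siErk3. For the interaction with PA, 18 of 30 had an unadjusted p below 0.05 with siMk5, against 7.43% of all genes. The siMk5 BSA libraries, which enter this interaction, had an 18S share of 8.39% to 12.9%, against 2.56% to 7.17% in siNtc BSA. The part of that share in these counts was not tested. With siErk3 the interaction reached an unadjusted p below 0.05 in 4 of 30, against 6.10% of all genes, and no interaction of the list was called by edgeR.

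**Figure D4:**
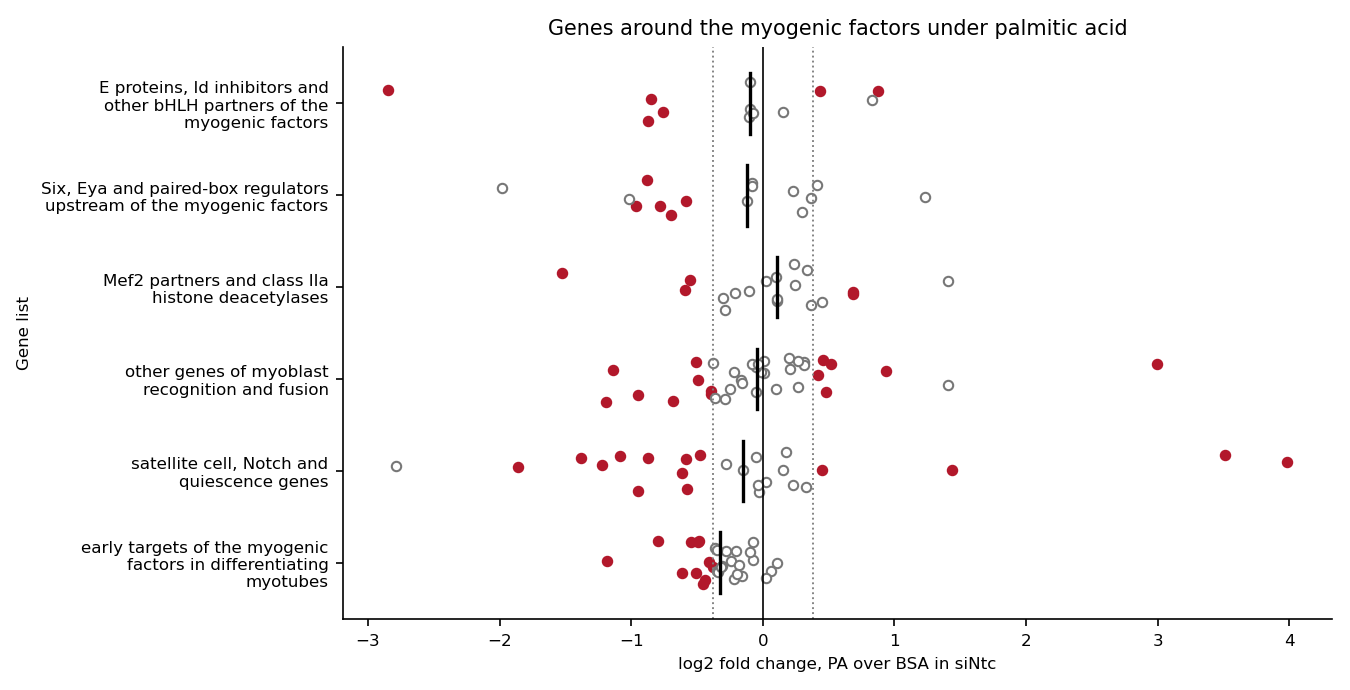
Log2 fold change of PA over BSA in siNtc (horizontal axis) for each tested gene of the 6 lists, with red points for called genes, open points for the others, black bars for the median of a list and dotted lines at the 1.3-fold limit. The early targets lie mostly to the left of 0 with a median of -0.33, and the other lists spread to both sides.

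For each gene called in at least 1 comparison, the 3 genes with the most similar pattern were found by Pearson's r of log2 CPM over the 18 libraries, among 12713 genes with a mean of at least 1 CPM. The libraries share the split by medium, so r was also computed within the 9 libraries of each medium, and these values are a description. Pax7 was most like Col6a1, Kif26b and Slc7a2, with r of 0.995 to 0.996 over all libraries, 0.737 to 0.803 in BSA and 0.963 to 0.97 in PA. Myod1 was most like Foxo6, Mtss2 and Sgo2a (0.992 to 0.993, then 0.498 to 0.875 and 0.843 to 0.953), and Myog most like Fst, Iffo1 and Tubb6 (0.991 to 0.994, then 0.0790 to 0.681 and 0.879 to 0.976). Mef2a was nearest to Sesn1, Rad21 and Bicd2 (0.978 to 0.987, then 0.673 to 0.898 and 0.0894 to 0.619). Mef2c was nearest to Prkag3, Akap6 and Filip1 (0.983 to 0.988, then 0.852 to 0.907 and 0.766 to 0.890). For the fusion genes these were Cdkn1a, Cand2 and Kif22 with Mymk (0.984 to 0.986, then 0.441 to 0.761 and 0.579 to 0.833) and Gja5, Frmpd1 and Smim5 with Mymx (0.954 to 0.964, then 0.281 to 0.70 and 0.809 to 0.932).

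For Myf6 the 3 nearest genes, Tomm34, Hspb8 and Lif, reached r of 0.823 to 0.866 over all libraries, 0.813 to 0.883 in BSA and 0.720 to 0.869 in PA. Among the 10 genes themselves, r over 18 libraries was 0.985 between Myod1 and Myog and 0.973 between Myod1 and Pax7, while Myod1 and Mef2d ran opposite with r of -0.865 and Myod1 and Myf6 with r of -0.465. For these pairs r was not computed within a medium. It therefore includes the difference of each gene between PA and BSA and says nothing more about a shared pattern.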

How the data were processed

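Counts of read pairs per gene for 18 libraries were deposited by the authors without normalization. Per the file header they were made with featureCounts 2.0.0 on the Ensembl 105 annotation of GRCm39, on the reverse strand (setting 2), with a minimum mapping quality of 3. The labels' processing notes name mm10, and the coordinates are those of GRCm39. A read pair in exons of more than 1 gene on a strand was not counted. The second deposited table was not used. Symbols came from GENCODE M39 and sequences from RefSeq. Columns of other samples numbered 0.

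Genes summing to 10 or more counts over the libraries were scaled by TMM, then fitted with edgeR 4.0.16 (quasi-likelihood test, R 4.3.3), with a coefficient for each of the 6 groups, and p-values were adjusted over all 21772 genes by Benjamini-Hochberg (FDR). Calls need an FDR below 0.05 and a fold change above 1.3. The study's methods give the same limits, for DESeq2. An interaction is the difference between 2 PA effects. With 3 against 3 libraries an exact permutation test of a gene cannot give p below 0.1. Total counts, 13041979 to 28496727 per library, set the precision of rare genes, and standard errors cover the spread between libraries as well. The code was tested on simulated data.

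The genes named are all 10 members, the silenced genes, the called genes of each list (at most 4 with the smallest adjusted p, otherwise the 2 smallest p), and the 3 genes most similar to each called member; some genes this rule names are not reported here. The members and lists were chosen with earlier results of these data known. Alternatives were DESeq2 1.42.0, its size factors in the edgeR fit, filterByExpr, no filter beyond 1 count, a block for the replicate number, calls by FDR only, fits of the compared libraries alone, and leaving out each library. The mean of both media was added after the data were seen.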

Additional observations from a re-analysis of the deposited data

How the results depend on the processing

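For the 40 member results with an unadjusted p below 0.05, 535 of 556 alternatives gave the same call, 20 passed in addition, 1 no longer passed, and 0 reversed direction. Of the 90 other member results 1 was called under an alternative. By the FDR alone, the genes called numbered 263 for siErk3 in BSA, 186 for siErk3 in PA, 445 for the siErk3 mean of both media and 103 for the siMk5 mean, and 1 member was called for siErk3 in PA, siMk5 in PA and the siErk3 mean (Mymx in each). With no filter beyond 1 count the genes called were 208 for siErk3 in PA, 61 for siMk5 in BSA, 201 for siErk3 against siMk5 in BSA, 72 and 130 for the siErk3 and siMk5 interactions, and 93 for the siMk5 mean. Myf6 was then called (1 member) for siMk5 in PA and for siErk3 against siMk5 in BSA and PA. Fitting only the compared libraries gave 34 genes for siMk5 in BSA. The siErk3 interaction counted 4 genes with DESeq2's size factors and 0 with filterByExpr, against 8. The cause was not tested.

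When libraries were left out 1 at a time, the genes called ran from 6005 to 6671 for PA in siNtc, 6411 to 7121 in siErk3 and 5897 to 6491 in siMk5, with 7 to 7, 6 to 8 and 5 to 7 members. They ran from 113 (without siNtc BSA replicate 2) to 144 for siErk3 in BSA, 85 to 168 in PA and 175 to 233 in the mean, with 0 to 0 members. For siMk5 they ran from 6 to 25 in BSA (6 without siNtc BSA replicate 2, 7 without siMk5 BSA replicate 3, 9 without siNtc BSA replicate 1, 25 without siMk5 BSA replicate 1) with 0 to 0 members, 85 to 128 in PA with 0 to 2, and 25 to 54 in the mean (25 without siNtc BSA replicate 2, 29 without siMk5 BSA replicate 1, 30 without siMk5 PA replicate 2) with 1 to 1. The 2 members were Myf6 and Mymx without siMk5 PA replicate 1. siErk3 against siMk5 gave 104 to 121 genes in BSA with 0 to 0 members, and 179 to 240 in PA with 0 to 1. The interactions gave 0 to 24 genes for siErk3, 0 without any of 5 libraries (siErk3 BSA replicates 1 and 2, siErk3 PA replicate 2, siNtc BSA replicates 1 and 3), 1 to 3 without siNtc BSA replicate 2 or any siNtc PA library, and 24 without siErk3 PA replicate 3, and 22 to 67 for siMk5 (22 without siMk5 BSA replicate 3, 27 without siMk5 PA replicate 2, 28 and 29 without siNtc BSA replicates 1 and 3), with 0 to 0 members.

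The replicate block changed no call of a member. With it 7, 6 and 6 members were called for PA and 0 for silencing within a medium. For the siMk5 mean of both media 1 member, Myf6, was called. Genes called moved little (6599 for PA in siNtc, 18 for siMk5 in BSA). The deviations of same-numbered libraries correlated between -0.607 and 0.516 over comparisons, and never above 0.1 in all 3 pairs. Libraries of unlike number were not compared in this way, so these values cannot settle whether the libraries are paired. The numbers were taken as names. Depth limits Myf6, Myf5, Msc, Lbx1 and Mapkapk5.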
